A study of Homo sapiens with 6 samples.

Results

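The vascular endothelial growth factors (VEGF), the platelet-derived growth factors (PDGF), the basic fibroblast growth factor FGF2 and the neuropilins were examined in pancreatic cancer cells that had been given anlotinib. The cells, PANC-1, are an established human line from a ductal carcinoma of the pancreas, and anlotinib is an oral inhibitor of several receptor tyrosine kinases, among them the receptors of VEGF, PDGF and FGF. Cells had received anlotinib at 5.535 μM, or DMSO, its solvent, for 48 h, and 3 samples of each group were hybridized to Affymetrix PrimeView arrays. All probe sets whose array annotation named exactly 1 gene, and that gene was VEGFA, VEGFB, VEGFC, PGF, PDGFA, PDGFB, PDGFC, FGF2, NRP1 or NRP2, were taken. They numbered 38 of the 39219 probe sets in the table, for 10 of 15274 genes, 0 probe sets shared a member with another gene, and all 38 passed the filters and were tested. Each value is a log2 signal made by the authors with RMA, and signals of different probe sets are not comparable as levels of mRNA. A log2 fold change is here the mean with anlotinib less the mean in DMSO, and is negative where anlotinib was lower.

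VEGFA, VEGFB, VEGFC and PGF encode secreted dimeric ligands of the VEGF receptor kinases, which drive the growth of blood vessels (VEGFA, PGF) and lymph vessels (VEGFC). The PDGF ligands recruit pericytes and fibroblasts through PDGFRA and PDGFRB, and FGF2 is held by heparan sulfate in the matrix and acts through the FGF receptors. NRP1 and NRP2 are co-receptors without a kinase domain of their own. They bind VEGF ligands as well as class 3 semaphorins, which are guidance cues that signal through plexins. In a tumor, cancer cells such as PANC-1 are a source of these ligands, while most of their receptor kinases sit on endothelial and stromal cells.

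Differences were tested with limma over 39063 probe sets and adjusted by Benjamini and Hochberg. Below, "rose" and "fell" stand for an FDR under 0.05, and "called" for that FDR together with a fold change of at least 2, the criteria of the study. The groups differed widely on these arrays, since 56.6% of all tested probe sets passed the FDR, 28.3% higher and 28.3% lower, and 4.09% were called, 2.38% higher and 1.71% lower. Array medians lay between 7.71 and 7.77, the correlation of any pair of arrays was at least 0.998 within a group and at most 0.978 between groups, and no array stood apart. Whether separate cultures were used within a group is not stated in the labels, so p-values measure the spread between these samples, which may be technical. The keratins KRT8, KRT18 and KRT19, which mark ductal epithelial cells, had signals of 13.47 to 14.61 in DMSO, and all 5 ductal markers examined fell with anlotinib (log2 fold changes of −0.26 to −0.75). Of 8 endothelial markers 7 were measured, and their summed log2 signals ranged from 40.12 to 40.72 in DMSO and from 40.39 to 40.77 with anlotinib. CLDN5 and TEK, which mark endothelial cells, lay in both groups below 5.05, the 10th percentile of all group means, here called the bottom of the table. At the brightest probe set, TEK fell by −0.22 and PECAM1, an adhesion molecule of endothelial cells, by −0.28, ESAM, an endothelial junction gene, rose by 0.99, and the other 4 did not pass. Of 6 markers of fibroblasts and stellate cells 3 were measured, with sums of 17.08 to 17.41 in DMSO and of 16.31 to 16.7 with anlotinib, and of 4 leukocyte markers 2 were measured, with sums of 12 to 12.34 and of 11.74 to 11.89. All 6 samples are labelled PANC-1, a single cultured line, so the markers were not read in a mixture of tissue cell types. The part of these marker shifts in the results below was not tested. Bulk RNA cannot tell a change in some of the PANC-1 cells from a change in all of them.

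At the brightest probe set of each gene, NRP1, PDGFB and VEGFA were the members with the largest decreases, VEGFC and PGF rose, and PDGFA did not pass the test at any probe set. The brightest probe set is the one with the highest mean signal, and there 5 of 10 genes fell (VEGFA, PDGFB, PDGFC, NRP1 and NRP2), 2 rose (VEGFC and PGF) and 3 did not pass the test (VEGFB, PDGFA and FGF2). Over all genes at the brightest probe set, 55.1% passed (29.7% of all genes fell and 25.4% rose), and 4.01% were called. With each array's median over the probe sets of a gene in place of the brightest, the decreases were smaller: PDGFB fell by −0.71, NRP1 by −0.54, PDGFC by −0.17 and VEGFA by −0.15, while NRP2 had −0.14 and did not pass (adjusted p = 0.0869 from limma). FGF2, level at its brightest probe set, was higher with anlotinib by this median. Its medians were 8.33, 8.43 and 8.35 in DMSO and 8.89, 8.76 and 8.86 with anlotinib, without overlap. The groups did not overlap at the brightest probe set of 8 of the 10 genes, with 2 higher and 6 lower (28.6% and 33.5% of all genes). Of the 38 probe sets 16 fell, 3 rose and 19 did not pass, so that the share that passed in either direction, 50%, was close to the 56.6% over the array. The share that fell was 42.1% against 28.3%, and the share that rose 7.89% against 28.3%. The median log2 fold change was −0.116 over the 38 probe sets and −0.0225 over all tested. The 38 probe sets are repeated readings of 10 genes and are not independent of each other. In 22 of the 38 the 3 anlotinib arrays did not overlap the 3 DMSO arrays (57.9%, against 63.1% of all tested probe sets), with 4 higher and 18 lower (31.5% and 31.6% of all tested). Of the 38 probe sets 1 was called lower, that of NRP1, against 1.71% of all tested probe sets, and 0 were called higher with limma (3 were higher at an unadjusted p under 0.05).

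**Figure D1:**
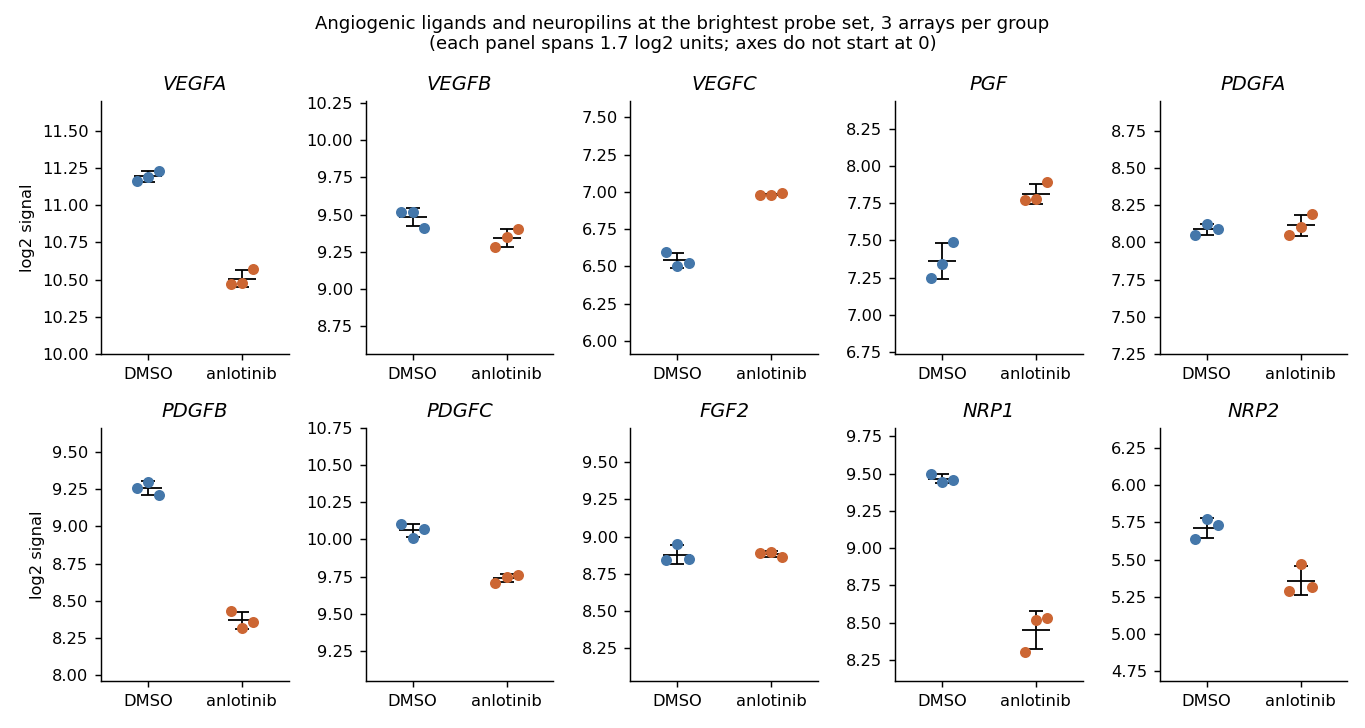
Log2 signal (y axis) of each member at its brightest probe set, for the 3 DMSO arrays (blue) and the 3 anlotinib arrays (orange), with the mean and SD as black bars. Each panel covers the same span. NRP1, PDGFB and VEGFA show the widest drops, VEGFC and PGF lie higher with anlotinib, and the groups of PDGFA and FGF2 overlap.

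Among the VEGF ligands, VEGFA, the main growth factor of endothelial cells, fell at its brightest probe sets. The brightest read 11.16, 11.19 and 11.23 in DMSO and 10.47, 10.48 and 10.57 with anlotinib. Every anlotinib array lay below every DMSO array. The log2 fold change was −0.69 (SE 0.0448, 95% confidence interval −0.79 to −0.58, adjusted p = 1.79e-05 from limma), which is a signal at 62.1% of that in DMSO. Its second probe set in order of signal read 10.74, 10.87 and 10.94 in DMSO and 10.05, 10.21 and 10.16 with anlotinib, a log2 fold change of −0.71, and the third gave −0.54. The brightest and the second were designed on a RefSeq transcript of VEGFA, as the annotation of the array gives it, and the other 8 were designed on other sequences.

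The 10 probe sets of VEGFA did not move together. Beside these 3, the sixth and the seventh in order of signal fell, by a log2 fold change of −0.36 and −0.18. The seventh no longer passed without DMSO 1, DMSO 2, anlotinib 1 or anlotinib 3. The other 5 did not pass the test, with log2 fold changes from −0.07 to 0.10. The fourth in order of signal is an example, which read 9.17, 9.16 and 9.20 in DMSO and 9.32, 9.26 and 9.19 with anlotinib. Its 95% confidence interval of −0.03 to 0.19 does not reach the decrease seen at the brightest probe set. Within an array, the brightest probe set minus the fourth had a mean of 2.02 with an SD of 0.0236 over the 3 DMSO arrays and a mean of 1.25 with an SD of 0.11 over the 3 anlotinib arrays, so that their changes differed by 0.77 on the log2 scale. Over all members, such within-array differences did not overlap between the groups for 20 of 28 pairs. The share over the pairs of all genes was not computed, so these counts cannot be called particular to the members. Among the 9 pairs of VEGFA, which all hold its brightest probe set and are not independent, such differences did not overlap for 8. For each of these 8 an exact two-sided permutation test gave p = 0.1, the smallest that 3 arrays against 3 allow, and p = 0.14 when adjusted over the 28 such pairs of all members. Of the 10 probe sets 5 carry an x in their ID, a mark for probes that may also bind other transcripts. These gave −0.69 and −0.18 as well as 0.08, −0.02 and 0.08. The second, the third and the sixth carry an s, a mark for probes that match several transcripts. Every probe set of VEGFA that fell thus carries an x or an s. The eighth and the ninth carry neither mark, and at 0.10 and −0.07 they did not pass the test.

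**Figure D2:**
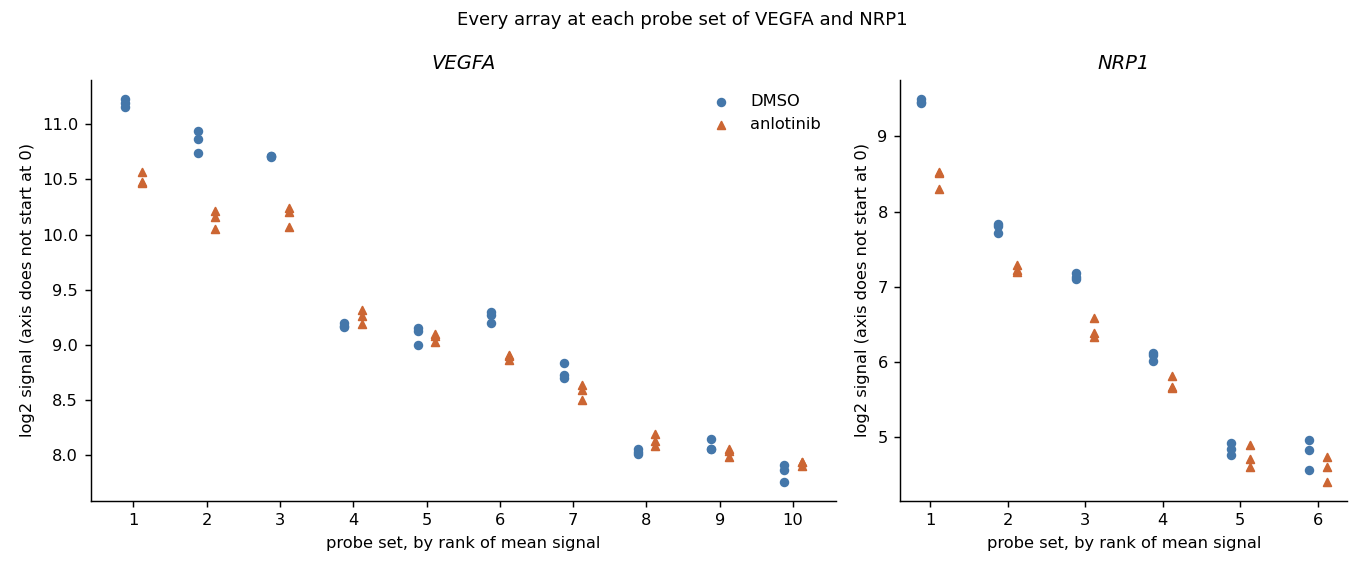
Log2 signal (y axis) of each array at every probe set of VEGFA (left) and NRP1 (right), ordered by mean signal (x axis, 1 is the brightest), with DMSO as blue circles and anlotinib as orange triangles. The first 3 probe sets of VEGFA separate the groups, while probe sets 4, 5, 9 and 10 overlap, and the 4 brighter probe sets of NRP1 separate them while the 2 dimmest do not.

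VEGFB, a ligand of FLT1 that also binds NRP1, had a single probe set, which read 9.52, 9.52 and 9.41 in DMSO and 9.28, 9.35 and 9.40 with anlotinib. The arrays did not overlap, but DMSO 3 and anlotinib 3 lay next to each other. The log2 fold change of −0.14 (95% confidence interval −0.26 to −0.01) did not pass (adjusted p = 0.0607), while it passed in 5 of the alternative settings, as given in the additional observations. VEGFC, the ligand of FLT4 and the main factor of lymph vessels, had a single probe set, which read 6.60, 6.50 and 6.52 in DMSO and 6.98, 6.98 and 6.99 with anlotinib. It rose to 136% of DMSO, by 0.44 on the log2 scale (SE 0.0428, adjusted p = 0.000108 from limma), with all anlotinib arrays above all DMSO arrays. PGF, the placental growth factor that binds FLT1, rose by 0.46 (SE 0.0689, adjusted p = 0.00102 from limma). Its single probe set read 7.25, 7.34 and 7.49 in DMSO and 7.77, 7.78 and 7.89 with anlotinib. The spread within DMSO, 0.12 (SD, n = 3), was wider for PGF than for VEGFC, and the groups did not overlap. VEGFC and PGF thus rose while VEGFA fell at its brightest probe set, and none of the 13 probe sets of the VEGF ligands was called, against 4.09% of all tested probe sets.

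VEGFC and PGF were the members that rose at their brightest probe set, so the genomic sequence just before the start of these genes is shown. RefSeq gave such a sequence for 6 of the 10 members in the table used here (VEGFB, VEGFC, PGF, PDGFA, FGF2 and NRP2), on build GRCh38.p14. Capitals mark the GC box, spelled GGGCGG on either strand (CCGCCC on the printed strand), the core motif to which SP1 and related factors bind. Each run holds the 250 bases before the outermost annotated start, printed 5′ to 3′ on the strand of the gene. VEGFC lies at chr4:176792923-176793172 and PGF at chr14:74955765-74956014, both on the minus strand.
VEGFC: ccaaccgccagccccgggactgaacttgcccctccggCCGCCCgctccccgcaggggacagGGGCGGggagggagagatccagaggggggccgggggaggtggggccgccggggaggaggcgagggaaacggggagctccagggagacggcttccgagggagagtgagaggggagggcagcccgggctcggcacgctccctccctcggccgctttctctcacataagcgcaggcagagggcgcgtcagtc
PGF: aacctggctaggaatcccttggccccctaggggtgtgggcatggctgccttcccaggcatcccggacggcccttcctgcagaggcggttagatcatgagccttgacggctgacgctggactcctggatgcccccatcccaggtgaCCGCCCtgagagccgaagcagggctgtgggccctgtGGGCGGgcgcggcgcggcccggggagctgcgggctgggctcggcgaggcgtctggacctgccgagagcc
Each held 2 such matches, and 42.6% of all 35116 promoter windows of that length held at least 1. The windows of the other 4 members held it too, those of VEGFB with 6 matches, FGF2 with 3, NRP2 with 3 and PDGFA with 1 to 5 by annotated start. The GC box thus did not set VEGFC and PGF apart among these 6 members. Of the members that fell only NRP2 had a window, so members that rose and members that fell cannot be compared. The letters of an AP-1 site (TGAGTCA, or TGACTCA), of the core of a hypoxia response element (ACGTG, or CACGT) and of a TATA box (TATAAA, or TTTATA), each searched on both strands, were not in any window of these 6 members, and 4.20%, 18.5% and 10.7% of all windows held them. A match describes the letters only.

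Of the PDGF ligands, PDGFB, whose product forms PDGF-BB and binds both PDGF receptors, fell at all 3 of its probe sets. The brightest read 9.26, 9.30 and 9.21 in DMSO and 8.43, 8.32 and 8.36 with anlotinib. Its log2 fold change was −0.89 (SE 0.0489, 95% confidence interval −1 to −0.77, adjusted p = 9e-06 from limma), a signal at 54.1% of DMSO and just short of the 2-fold limit. The second read 7.81, 8.02 and 7.87 against 7.18, 7.28 and 7.10, and the third 7.11, 7.19 and 7.04 against 6.43, 6.45 and 6.41. These gave −0.71 and −0.68, and the groups did not overlap at any of the 3. The estimate at the brightest stayed between −0.86 and −0.92 in every alternative fit of that probe set.

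PDGFC, which is secreted as a latent dimer and activated by cleavage, fell less. Its brightest probe set read 10.10, 10.01 and 10.07 in DMSO and 9.71, 9.75 and 9.76 with anlotinib, a difference of −0.32 on the log2 scale (SE 0.0418, adjusted p = 0.000501 from limma), or 80.2% of DMSO. The second gave −0.17 with an adjusted p of 0.0478 from limma, a result that no longer passed when any array other than anlotinib 3 was left out, and the third −0.12 (adjusted p = 0.116). At all 3 probe sets the anlotinib arrays lay below the DMSO arrays. PDGFA, whose product binds PDGFRA, read 8.05, 8.12 and 8.09 in DMSO and 8.05, 8.10 and 8.19 with anlotinib at its brightest probe set. The groups overlapped at all 4 of its probe sets, with log2 fold changes between −0.02 and 0.10, and the interval at the brightest, −0.09 to 0.14, includes 0. Its dimmest probe set lay at the bottom of the table in both groups. From the lowest log2 fold change to the highest, the brightest probe sets of the 3 PDGF ligands were ordered PDGFB, PDGFC and PDGFA. Their 95% confidence intervals do not overlap, and that of PDGFA showed no decrease that passed the test.

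FGF2, a mitogen of endothelial cells and fibroblasts, gave readings that depended on the probe set. At the brightest the values were 8.84, 8.95 and 8.85 in DMSO and 8.89, 8.90 and 8.86 with anlotinib, with overlapping groups and a log2 fold change of 0.00 (95% confidence interval −0.10 to 0.11). At the second they were 8.33, 8.43 and 8.35 against 8.89, 8.76 and 8.87, without overlap. That probe set rose by 0.47 (SE 0.0518, adjusted p = 0.000206 from limma), to 139% of DMSO. The third gave 0.00 at signals of 5.95 in both groups. Within an array, the brightest minus the second had a mean of 0.51 with an SD of 0.00847 over the DMSO arrays and a mean of 0.04 with an SD of 0.0811 over the anlotinib arrays (p = 0.1 by the exact two-sided permutation test, adjusted p = 0.14).

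NRP1, the co-receptor of VEGFA and of SEMA3A, was the member called lower. Its brightest probe set read 9.50, 9.44 and 9.46 in DMSO and 8.30, 8.52 and 8.53 with anlotinib, so that anlotinib 1 was the lowest array. The log2 fold change was −1.01 (SE 0.0696, 95% confidence interval −1.18 to −0.85, adjusted p = 2.2e-05 from limma), a signal at 49.5% of DMSO. The decrease exceeded the spread within either group, but its interval spans the 2-fold limit. Without anlotinib 1 the value was −0.94 and without DMSO 1 it was −0.9997, and neither was called. The treat test, which asks whether a change exceeds 2-fold, gave an adjusted p of 1. The ID of this probe set, like that of the brightest of PDGFB, carries an s, a mark for probes that match several transcripts, and its signal may include transcripts of other genes.

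The other 5 probe sets of NRP1 all had negative log2 fold changes. Probe sets 2, 3 and 4 in order of signal fell by −0.55, −0.70 and −0.37, without overlap between the groups. At the third, for instance, DMSO read 7.10, 7.19 and 7.13 and anlotinib 6.34, 6.58 and 6.39. The fifth and the sixth, at −0.11 and −0.20, lay at the bottom of the table in both groups and did not pass the test. Within an array, the brightest minus probe set 2, 3 or 4 did not overlap between the groups (exact two-sided permutation test, p = 0.1 for each, adjusted p = 0.14), and its change with anlotinib ranged from −0.31 to −0.65 on the log2 scale.

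NRP2, the co-receptor of VEGFC and of SEMA3F, had low signals on these arrays. Its brightest probe set read 5.64, 5.77 and 5.73 in DMSO and 5.29, 5.47 and 5.32 with anlotinib, and fell by 0.35 on the log2 scale (SE 0.0615, adjusted p = 0.00205 from limma) without overlap. The fourth in order of signal fell by −0.36, from 5.24 to 4.87, and since the latter lies at the bottom of the table this is a lower bound. The other 4 did not pass, with log2 fold changes between −0.11 and 0.04 and overlapping groups, and 2 of them lay at the bottom of the table in both groups.

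**Figure D3:**
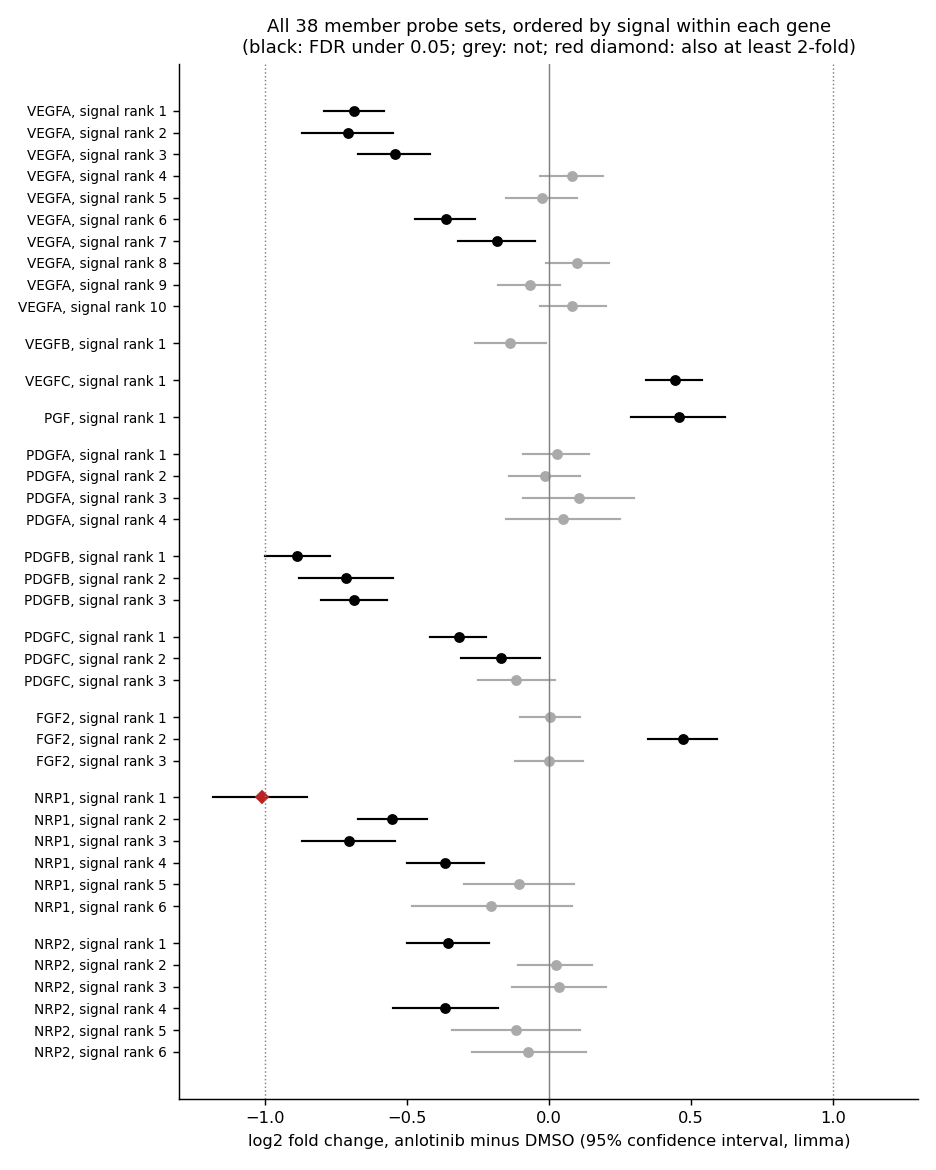
Log2 fold change with its 95% confidence interval from limma (x axis) for each of the 38 probe sets, grouped by gene and ordered by mean signal within a gene. Black marks an FDR under 0.05, grey the rest, and the red diamond the probe set that was also at least 2-fold lower, at −1.01. The readings of VEGFA spread from −0.71 to 0.10, those of PDGFB stay between −0.89 and −0.68, and those of PDGFA lie around 0.

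Genes that act with these ligands were examined as lists, with each gene at its brightest probe set. Of all genes so measured, 2.10% were called higher and 1.91% lower. The receptor kinases of the ligands numbered 8 measured of 9, since FLT1 was not analysed here, and 0 were called with limma. FGFR2, a receptor of FGF ligands, fell by a log2 fold change of −0.62 (SE 0.0384), PDGFRB by −0.16, and FGFR1 rose by 0.22 at its brightest probe set, while its 2 dimmest fell by −0.34 and −0.42. Probe sets 2 to 4 of FGFR2 in order of signal also fell, while its probe sets 5 to 10 did not pass. The other 5, among them KDR, the main receptor of VEGFA, did not pass the test at their brightest probe set. Among dimmer ones, the second of FGFR3 fell by −0.49 and the fourth of FGFR4 by −0.29. KDR read 6.16, 5.69 and 6.09 in DMSO and 6.24, 6.25 and 6.07 with anlotinib. At an unadjusted p under 0.05, 1 was higher and 2 lower.

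The class 3 semaphorins and plexins, among which are partners of the neuropilins, held the 3 largest decreases among these lists. Of 11 measured members 3 were called lower and 0 higher, and 4 fell and 1 rose, with a median of −0.105 against −0.0437 over all genes. SEMA3C, a secreted semaphorin that binds both neuropilins, read 10.75, 10.84 and 10.86 in DMSO and 9.28, 9.33 and 9.34 with anlotinib, a difference of −1.50 on the log2 scale (SE 0.0451, adjusted p = 1.2e-06 from limma). SEMA3E, which signals through PLXND1, read 7.92, 8.19 and 8.02 against 6.50, 6.43 and 6.54, a log2 fold change of −1.55 (SE 0.0751). The dimmer probe set of SEMA3E fell by −0.65 and was not called, with anlotinib at the bottom of the table. SEMA3F, a ligand of NRP2 that repels endothelial cells, read 8.51, 8.55 and 8.43 against 7.29, 7.19 and 7.40, a log2 fold change of −1.20 (SE 0.0655). All 3 kept their calls when any single array was left out, and no arrays of the groups overlapped. PLXND1, the receptor of SEMA3E, fell by −0.62 and PLXNA1 rose by 0.45, while SEMA3A, the ligand of NRP1, had 0.01 and did not pass.

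Of the other angiogenic ligands 8 of 11 were measured, and 1 was called higher. CXCL8, a chemokine that attracts neutrophils and acts on endothelial cells, read 8.88, 8.84 and 8.71 in DMSO and 10.68, 10.64 and 10.68 with anlotinib. Its log2 fold change was 1.86 (SE 0.0534, adjusted p = 1.11e-06 from limma), and its other 2 probe sets gave 2.13 and 2.05. In this list 2 rose and 3 fell in all, and the median was −0.0334. Among 6 measured secreted inhibitors of angiogenesis 2 were called lower and 0 higher, SEMA3F, which is in both lists, and SERPINF1, the pigment epithelium-derived factor, which had −1.02 (SE 0.0868). In all 4 of the inhibitors fell and 1 rose, with a median of −0.484, and the one that rose was ADAMTS1, a secreted protease that can bind VEGFA, at 0.92. The call of SERPINF1 was lost without DMSO 1 (−0.9951) and without anlotinib 1 (−0.9373). Its dimmer probe sets fell by −0.74 to −0.79 and were not called, some with anlotinib at the bottom of the table. THBS1, the matrix glycoprotein thrombospondin 1, had −0.01 and did not pass.

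Of 5 measured genes that process the ligands 1 was called lower. ADAMTS3, the protease that completes the cleavage of pro-VEGFC, had −1.01 (SE 0.0656), and its call was lost without DMSO 1 (−0.9991), DMSO 2 (−0.9807) or anlotinib 1 (−0.9554). Its dimmer probe sets fell by −0.78 and −0.32 and were not called, the dimmest with anlotinib at the bottom of the table. FURIN, a convertase that cleaves the precursors of VEGFC and PDGF ligands, fell by −0.65. Of 8 measured proteoglycans and carriers of the ligands 0 were called with limma, with 5 higher and 2 lower by FDR and by an unadjusted p under 0.05 alike, and a median of 0.187. HSPG2, which encodes the matrix proteoglycan perlecan, fell by −0.80 at its brightest probe set, while its dimmer one had 0.02 and did not pass. The syndecan SDC2 fell by −0.70, and FGFBP1, a secreted carrier of FGF2, rose by 0.56. Of 6 measured genes of the hypoxia response that controls VEGFA, 2 rose, 3 fell and 0 were called (2 higher and 3 lower at an unadjusted p under 0.05). EPAS1, which encodes HIF-2α, rose by 0.61, and HIF1AN, which inhibits HIF, fell by −0.30. HIF1A had 0.05 at its brightest probe set and did not pass, while its 7 dimmer ones rose by 0.15 to 0.28. EGLN1, a prolyl hydroxylase that marks HIF for degradation, rose by 0.18 at its brightest probe set, and its 2 dimmer ones were called higher at 1.15 and 1.10.

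**Figure D4:**
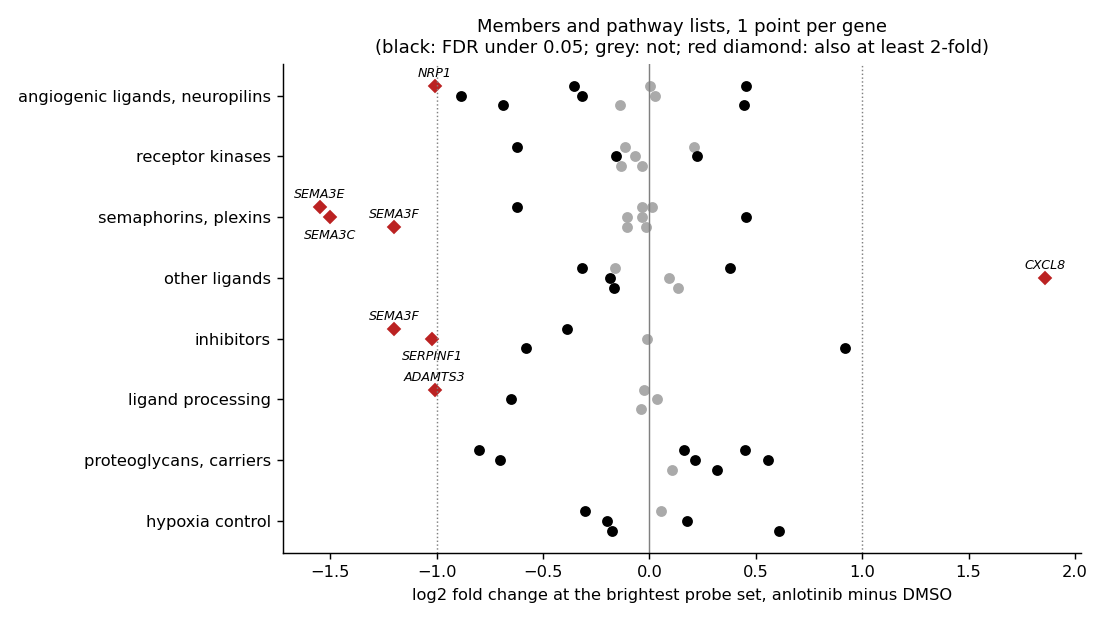
Log2 fold change at the brightest probe set (x axis), with 1 point per gene, for the 10 members (top) and 7 lists of related genes. Grey points did not pass an FDR under 0.05, black points did, and named red diamonds were also at least 2-fold changed: NRP1, SEMA3C, SEMA3E, SEMA3F, SERPINF1 and ADAMTS3 lower, CXCL8 higher. SEMA3F is drawn in both lists that hold it.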

How the data were processed

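RNA of 6 PANC-1 samples (3 DMSO, 3 anlotinib, as labelled) had been read on Affymetrix PrimeView arrays. The log2 signals were made by the authors with RMA and filtered on low signal in R before they were deposited. Array signals carry no counts, so the number of arrays limits the precision. Control probe sets (73) and probe sets with a CV over 25% on the linear scale within a group (83) were left out, which kept 39063, of which 35858 are annotated to 1 gene. In R 4.3.3, the functions lmFit and eBayes of limma 3.58.1 gave the differences, with p-values adjusted across all these probe sets (Benjamini and Hochberg), and the procedure was tested on simulated data. Single within-array differences were compared by an exact permutation test. Members, lists and the rule for named genes (all members, and of each list up to 4 called genes, or the 2 with the largest change where none was called) were chosen with earlier results of these data known. PDGFRB, KDR, FGFR3, FGFR4, ADAMTS1, FGFBP1, PLXND1, PLXNA1, SEMA3A, THBS1, FURIN, HIF1A and EGLN1, and the markers KRT8, KRT18, KRT19, CLDN5, TEK, PECAM1 and ESAM, were named beyond that rule after their values were seen. Alternatives changed the filters, normalization, limits, variance model, pairing, probe sets and arrays used.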

Additional observations from a re-analysis of the deposited data

How the results depend on the processing

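Without a fold limit 16 member probe sets were called lower and 3 higher, and with a limit of 1.5-fold 7 lower. With treat at 2-fold 0 were called lower by limma. With the probe sets that may cross-hybridize left out (27 members tested) 0 were called as well, because the called one of NRP1 was among those left out. Every probe set of VEGFA that fell was left out too. Its eighth (0.10, adjusted p = 0.116 from limma) and ninth (−0.07, adjusted p = 0.302 from limma) were kept and did not pass. The second and the third of PDGFB and probe sets 2, 3 and 4 of NRP1 were kept and still fell. Leaving out each array gave 0 to 1 lower. Of all tested probe sets 6141 were called at 1.5-fold, 22095 without a fold limit and 655 with treat. VEGFB passed the FDR with the lowest 40% of signals left out, after a second quantile normalization, after centring, with trend and robust settings, and without DMSO 3 (adjusted p = 0.016 to 0.0363). The sixth probe set of NRP1 passed without DMSO 3 (−0.309) and the eighth of VEGFA with the lowest 40% left out (0.10). The second of PDGFC had an adjusted p of 0.0527 with cross-hybridizing probe sets left out. Values near 0 changed sign without any of them passing the test. When arrays were left out, the fifth probe set of VEGFA ran from −0.0711 to 0.00418, probe sets 1, 2 and 4 of PDGFA from −0.00943 to 0.0597, from −0.062 to 0.017 and from −0.0276 to 0.107, the first and the third of FGF2 from −0.0143 to 0.0365 and from −0.0482 to 0.0365, and the second and the third of NRP2 from −0.0274 to 0.0604 and from −0.0234 to 0.0813. The first of FGF2 had −0.0128 after quantile normalization and −0.0103 after centring, and the third −0.0138 after centring. The cause was not tested.

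Samples with the same number in both groups had deviations from their group means that correlated with r of 0.167, 0.00625 and −0.145. Whether the numbers pair the samples is not stated in the labels, and with 3 samples per group these values cannot settle it. With that number added as a replicate block, limma called 1 member probe set lower and 0 higher, as without it (3 higher at an unadjusted p under 0.05 without the block), and changed no call of a member. Leaving out arrays for the list genes was chosen after seeing the data.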
